A study of Caenorhabditis elegans with 2 samples.

Results

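The regions described here are sub-threshold binding regions: stretches of the Caenorhabditis elegans genome at which a tagged zinc finger protein gave enrichment in both replicates, but with scores below those of the thresholded peak lists. They were selected on measured values. A region was included when it lay on a nuclear chromosome, had a deposited score from 540 to below 830 in the ranked list made from both replicates, and overlapped no peak of either combined thresholded list by even 1 bp. This gave 2389 regions of the 104781 nuclear regions in that ranked list, or 2.28%. Of 2741 nuclear regions in the score band, 344 were left out because they overlapped the second combined thresholded list only, and 8 because they overlapped both lists.

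The study located the product of ztf-23 by chromatin immunoprecipitation and sequencing in strain RW12279, in which CRISPR insertion placed TY1, EGFP and 3xFLAG tags at the endogenous gene on chromosome I. Chromatin came from whole embryos at the mid-embryonic stage (1.5 hours in the labels, after egg bleaching) and was precipitated through GFP, so all cell types are mixed. There were 2 biological replicates of this 1 group, and no untagged strain or input library was analysed here. The sources used here give no read depth, and intervals below cover counting error over regions only.

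Zinc finger transcription factors bind DNA, often at promoters, the stretches just upstream of gene starts where transcription begins. Peak lists from such experiments are commonly thinned with the irreproducible discovery rate (IDR), an estimate of the chance that a region's rank is not shared between replicates. A higher score means a lower IDR, and the usual cut-off keeps the regions of the highest scores. Transfer RNA (tRNA) genes, which recur below, are read by RNA polymerase III from short internal elements called the A box and the B box.

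Sequences of a few regions are shown first. Some were picked because they hold words that lead at conservative peaks, and others because they are strong. Among the strong ones, a pair was picked for holding none of the words, so their lack of words is the choice itself. Whether holding a word goes with signal was not tested. Each is read from the RefSeq sequence of WBcel235, the assembly called ce11, on the plus strand and 5′ to 3′, over 50 bp to either side of the summit. In the first set, capitals mark AGTGGTTA (the 8-letter word most enriched at the summits of conservative peaks) or GGTTCGA, the core of the tRNA B box, either as written or as their reverse complements TAACCACT and TCGAACC. These 3 are the regions of highest signal that hold AGTGGTTA, at the tRNA gene F52E10.t3 (chrX:16285256-16285356), in an intron of fbxc-36 (chrII:942764-942864) and at the tRNA gene F28H6.t5 (chrX:14136919-14137019).
F52E10.t3: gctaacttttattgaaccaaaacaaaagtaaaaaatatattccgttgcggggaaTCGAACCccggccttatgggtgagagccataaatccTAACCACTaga
fbxc-36 intron: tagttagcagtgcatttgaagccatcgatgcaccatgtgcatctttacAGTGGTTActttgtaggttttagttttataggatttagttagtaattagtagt
F28H6.t5: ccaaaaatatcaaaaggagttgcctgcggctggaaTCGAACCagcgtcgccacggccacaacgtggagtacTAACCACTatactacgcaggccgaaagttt

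The region of highest signal at any tRNA gene lay at T22F3.t1, inside the glycogen phosphorylase gene pygl-1 (chrV:3582291-3582391), and is shown for that signal. It holds none of the words and so has no capitals, but it does hold GGTTC, with which the B box core GGTTCGA begins.
T22F3.t1: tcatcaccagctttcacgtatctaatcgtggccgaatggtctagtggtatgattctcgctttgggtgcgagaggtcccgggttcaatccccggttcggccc

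A pair of the strongest regions, both intergenic, at chrIV:14779956-14780056 and chrX:1636377-1636477, are shown because they hold none of the words. Both repeat themselves: in the first, 80.4% of letters equalled the letter 45 bases further on, and in the second 94.7% equalled the letter 26 bases further on.
Intergenic region on IV: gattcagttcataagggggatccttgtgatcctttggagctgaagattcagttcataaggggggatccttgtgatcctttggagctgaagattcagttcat
Intergenic region on X: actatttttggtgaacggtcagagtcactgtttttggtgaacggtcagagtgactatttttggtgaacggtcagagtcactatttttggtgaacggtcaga

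The last set shows words that led at conservative peaks away from tRNA, small nucleolar RNA (snoRNA) and small nuclear RNA (snRNA) genes, in capitals. GTGTTTGC, the reverse complement of GCAAACAC, stood in an intron of the pseudogene WBGene00023264 (chrV:4063752-4063852). It holds TGTTTGC, letters of the kind forkhead factors such as the pharyngeal regulator PHA-4 are known to bind. AAGTGCGC stood beside a summit 95 bp upstream of the start of szy-20, which encodes a centrosome-associated RNA-binding protein (chrII:8969378-8969478).
WBGene00023264 intron: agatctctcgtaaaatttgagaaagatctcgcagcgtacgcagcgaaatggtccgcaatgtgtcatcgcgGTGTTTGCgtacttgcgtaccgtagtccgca
szy-20 promoter: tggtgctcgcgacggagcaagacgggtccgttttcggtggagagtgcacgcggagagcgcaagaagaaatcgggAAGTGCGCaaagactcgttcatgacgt

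The values that chose the regions are described without a test. The score of a sub-threshold region had a median of 634. By its scale, which follows the log of the IDR, a score of 540 stands for an IDR of 0.0501 and 830, the lowest score of the conservative list, for 0.0100. The deposited combined signal, whose scale is not stated, ran from 2.05 to 237 with a median of 84.6 in the sub-threshold regions, against a median of 128 in the 2213 conservative nuclear peaks and 72.6 in 3167 regions that scored from 400 to below 540 and also lay in no thresholded list. The middle of the sub-threshold distribution was narrow, with quartiles of 77.4 and 91.8. Nearly all, 2388, were 344 bp wide, and 1 was 110 bp wide, whereas 1936 conservative peaks (87.5%) had that width.

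At the upper edge of the band, the pair of regions with the highest score and signal had combined signals of 103 (chrIV:10323538-10323881) and 86.8 (chrII:6968266-6968609, whose nearest protein-coding start was that of eif-2Bgamma). Just across that edge, 2 conservative peaks with a score of 830 had 105 (chrII:14565189-14565532) and 97.8 (chrX:1412323-1412666). At the lower edge, 2 regions with a score of 540 had 85.0 and 84.1, while 2 regions just under that score, which fell outside, had 94.0 and 90.1. Signals overlapped across both edges.

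Both replicates gave these regions low signal. Replicate 1 ran from 32.6 to 79.6 with a median of 40.0 in the sub-threshold regions, and replicate 2 from 36.9 to 290 with a median of 45.5. In conservative peaks the medians were 60.6 in replicate 1 and 71.1 in replicate 2, and in the regions of lower scores they were 34.1 and 38.6. Replicate 2 was the higher of the pair at 1674 sub-threshold regions (70.1%), against 1682 conservative peaks (76.0%). The higher replicate exceeded the lower by a median factor of 1.20 in sub-threshold regions and 1.23 in conservative peaks. The score band confines both signals of the sub-threshold regions to a narrow range, so these like ratios do not show like agreement between replicates. The replicates' own summits lay a median of 41 bp apart in sub-threshold regions, against 23 bp in conservative peaks and 46 bp at the lower scores.

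**Figure D1:**
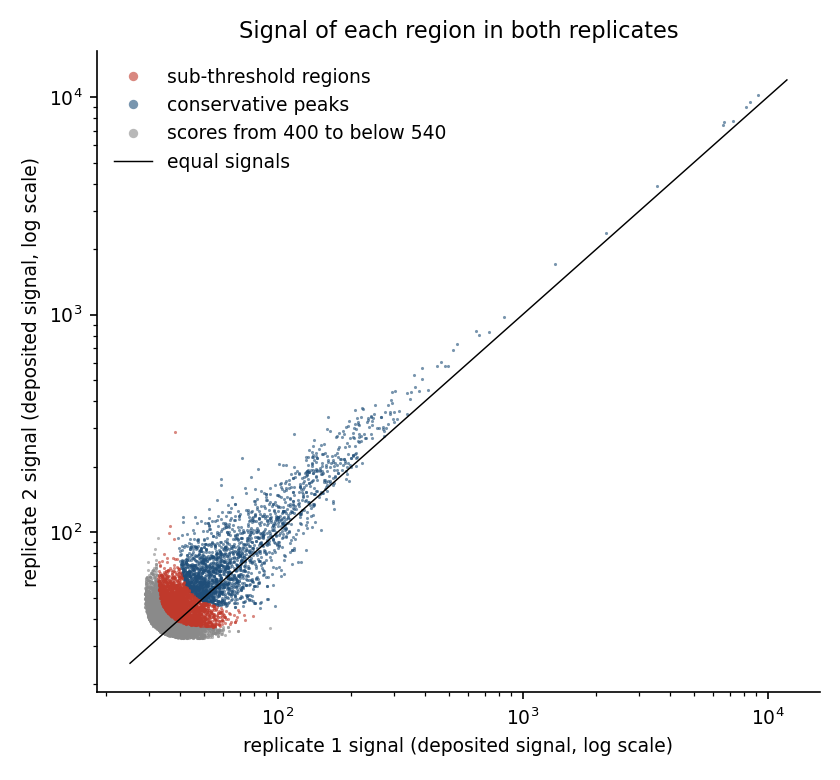
Signal of each region in replicate 1 (x axis) and replicate 2 (y axis), both as deposited and on log scales; each point is 1 region, red for the 2389 sub-threshold regions, blue for the 2213 conservative peaks and grey for the 3167 regions of lower scores. Sub-threshold regions fill a band between the other sets, and 1 red point stands far above it at 38.1 in replicate 1 and 290 in replicate 2.

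Within the band, high signal in one replicate went with low signal in the other: the Spearman rank correlation between replicates was −0.549 over the 2389 sub-threshold regions, against 0.656 over conservative peaks and −0.773 at the lower scores. All points come from the same 2 libraries, and a narrow band of the score restricts the pairs of signals that can occur in it, so this describes the selection. The 2389 regions drew on 2211 distinct pairs of replicate regions, and 356 of them shared their pair with another sub-threshold region.

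Thresholded alone, the replicates hardly held these regions. None of the 2389 overlapped a peak in the own thresholded lists of both replicates, 2 overlapped a peak of replicate 1 only and 11 one of replicate 2 only, which left 2376 (99.5%) in neither. Of conservative peaks, 679 were in both own lists and 1038 (46.9%) in neither. In the second combined ranked list, which comes from the same reads and whose thresholded peaks the rule had already removed, so that high scores there were largely left out in advance, the overlapping region scored a median of 590 for sub-threshold regions, against 1000 for conservative peaks. As a description, 1420 sub-threshold regions (59.4%) scored from 540 to below 830 there, 941 (39.4%) scored lower, 12 scored 830 or more, and 16 had no overlapping region.

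Sub-threshold regions lay far less often at gene starts than conservative peaks, and slightly more often than regions of the next lower scores. A gene start within 500 bp of the summit was found for 845 of 2389 sub-threshold regions (35.4%, exact Clopper-Pearson 95% interval 33.5 to 37.3), against 1382 of 2213 conservative peaks (62.4%, interval 60.4 to 64.5). This differed by a two-sided Fisher's exact test (p = 1.10e-75, Benjamini-Hochberg adjusted over 3 shares). Regions of lower scores had 30.3% (adjusted p = 2.49e-04 by Fisher's exact test), and of all genome positions 30.1% lay that near a start. Regions are not independent replicates of an experiment, since neighbours share chromatin and all come from the same 2 libraries, so these p-values and those below measure counting error alone.

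For protein-coding starts the share was 530 regions (22.2%) against 878 conservative peaks (39.7%, adjusted p = 6.94e-38, Fisher's exact test). Against the 20.2% at the lower scores it was not past the threshold of 0.05 (adjusted p = 0.0726, Fisher's exact test). The genome as a whole had 18.8%. The side of the start differed more plainly: of the sub-threshold summits within 500 bp of a protein-coding start, 317 of 530 (59.8%) were upstream, against 735 of 878 conservative summits (83.7%, adjusted p = 8.09e-23, Fisher's exact test). At the lower scores the share was 51.3% (adjusted p = 0.00573, Fisher's exact test), and among genome positions 47.7%.

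The median distance to the nearest start of any gene was 950 bp for sub-threshold summits, 251 bp for conservative summits, 1044 bp at the lower scores and 1005 bp over the genome. Only 158 sub-threshold summits (6.61%) were within 50 bp of a start, against 489 conservative summits (22.1%). The bin from 200 to 100 bp upstream of protein-coding starts was the fullest for both, with 3.68% of sub-threshold summits and 11.0% of conservative summits.

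**Figure D2:**
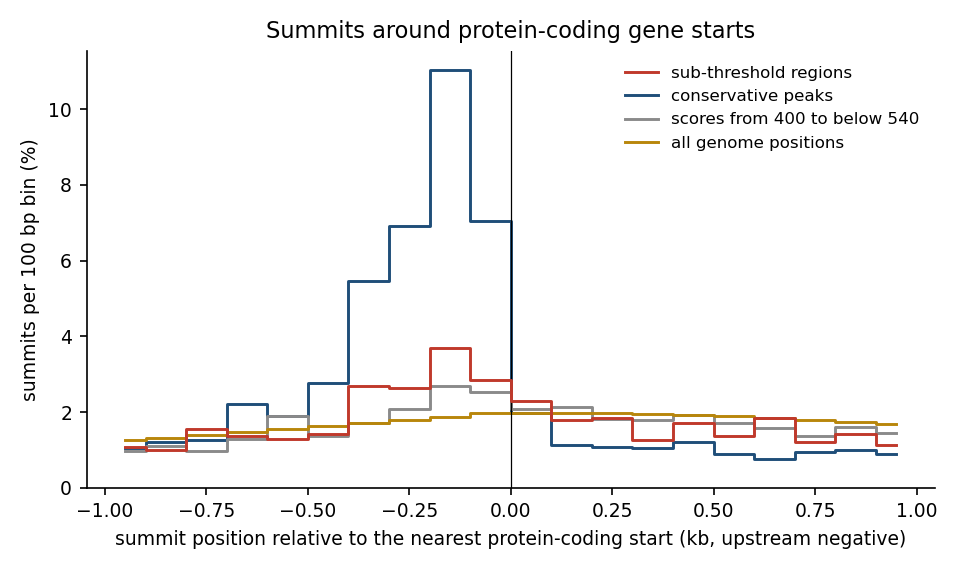
Position of the summit relative to the nearest protein-coding start (x axis, kb, upstream negative) and percent of each set's summits in each 100 bp bin (y axis); red is the sub-threshold regions, blue the conservative peaks, grey the regions of lower scores and gold all genome positions. The sub-threshold line has a low upstream shoulder that reaches 3.68%, under the conservative peak of 11.0%.

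By genomic class, sub-threshold summits were spread much as the genome is, with a small surplus in promoters and a deficit in coding exons. A promoter, here the 500 bp upstream of any gene start, held 520 sub-threshold summits (21.8%) against 1025 conservative summits (46.3%, adjusted p = 2.57e-69, Fisher's exact test adjusted over 7 classes). Regions of lower scores had 17.1% there (adjusted p = 8.30e-05, Fisher's exact test), and the genome 17.5%. Coding exons held 379 sub-threshold summits (15.9%) and 111 conservative summits (5.02%, adjusted p = 9.32e-34, Fisher's exact test). Their share was 18.8% at the lower scores (adjusted p = 0.0153, Fisher's exact test) and 22.5% over the genome.

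Introns held 752 sub-threshold summits (31.5%), against 374 conservative summits (16.9%, adjusted p = 1.47e-30, Fisher's exact test), and intergenic stretches 544 (22.8%) against 399 (18.03%, adjusted p = 9.47e-05, Fisher's exact test). The intergenic call was lost with promoters of 250 bp (adjusted p = 0.643) and with regions near small RNA genes left out (adjusted p = 0.197, Fisher's exact test for both). The genome values were 30.9% for introns and 22.3% for intergenic stretches. Exons of non-coding genes were the class other than promoters in which conservative peaks exceeded them clearly, with 86 sub-threshold summits (3.6%) against 238 conservative summits (10.8%, adjusted p = 1.48e-21, Fisher's exact test). The 3′ UTR share was 2.30% against 1.04% (adjusted p = 0.0010, Fisher's exact test), while the 5′ UTR share of 2.22% against 1.94% did not pass the threshold (adjusted p = 0.537, Fisher's exact test). Against the lower scores, only the promoter and coding exon shares passed it among the 7 classes.

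**Figure D3:**
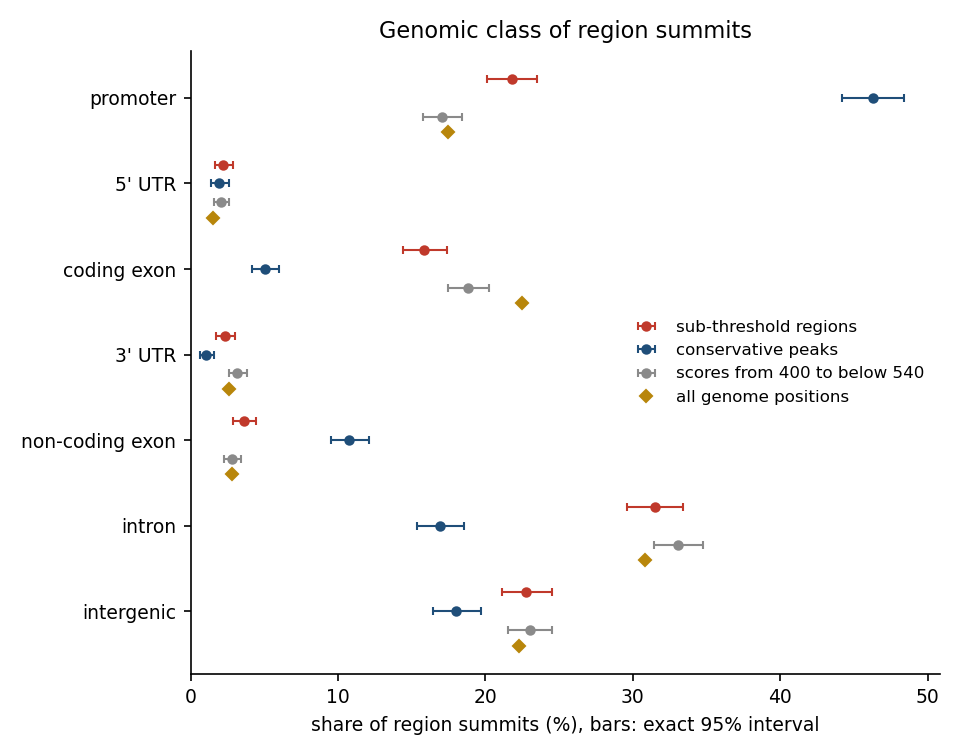
Share of summits in each genomic class (x axis, percent, with exact 95% intervals) for the sub-threshold regions (red), conservative peaks (blue) and regions of lower scores (grey), with the share of all genome positions as gold diamonds. In every class but the 5′ UTR the red points are nearer to the gold diamonds than the blue points are, and promoters hold 21.8% of sub-threshold against 46.3% of conservative summits.

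The promoter share was followed across the band in 5 bins of the score. It was 21.3% (95% interval 18.5 to 24.2) from 540, 19.04% from 600, 22.3% from 660, 23.8% from 720 and 27.7% (21.5 to 34.5) from 780 up to the edge at 830. Below the band it was 14.7% from 100 to below 200 and 17.5% from 470 to below 540. In conservative peaks it was 28.9% (24.1 to 34.0) from 830 to below 900, 31.8% from 900 to below 1000, and 54.1% at 1000. The promoter shares on either side of 830 were thus within each other's intervals. The coding exon share was 15.9% (11.1 to 21.8) from 780 and 8.93% (6.11 to 12.5) from 830.

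Inside the band the differences did not pass the threshold after adjustment, which does not show that the shares were level across it. Parted at the middle of the score range, promoters held 24.5% of 763 summits of higher score against 20.5% of 1626 of lower score (adjusted p = 0.204, Fisher's exact test). Starts of any gene were within 500 bp of 38.4% against 33.95% (adjusted p = 0.0761, Fisher's exact test).

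**Figure D4:**
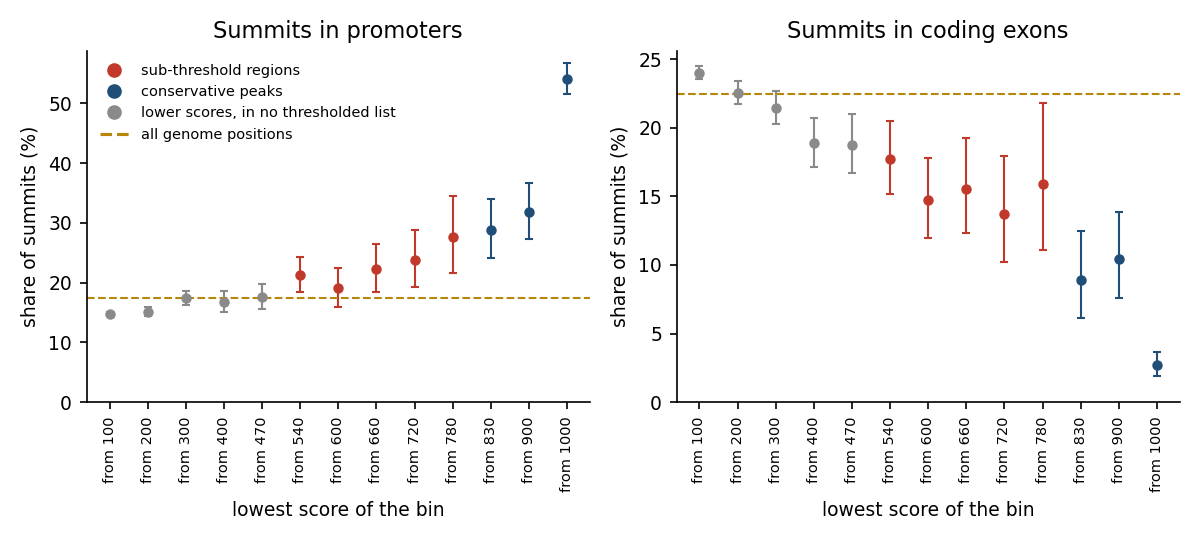
Share of summits in promoters (left) and in coding exons (right) by score bin from low to high (x axis, lowest score of each bin); points are percent with exact 95% intervals, red for sub-threshold regions, blue for conservative peaks and grey for lower scores in no thresholded list, and the dashed line is the share of all genome positions. The promoter share is 27.7% in the highest red bin and 28.9% in the lowest blue bin, and the coding exon share is 15.9% and 8.93% there.

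The tRNA genes, the mark of many conservative peaks, were at far fewer of the sub-threshold regions. A summit within 200 bp of a tRNA gene was found for 19 sub-threshold regions (0.795%, interval 0.479 to 1.24), against 256 conservative peaks (11.6%, adjusted p = 2.18e-60, Fisher's exact test adjusted over 10 non-coding classes). At the lower scores it was 13 regions (0.410%), a difference that did not pass the threshold (adjusted p = 0.365, Fisher's exact test), and over all ranked nuclear regions 0.467%. Counted by gene, 22 of 612 annotated tRNA genes (3.6%) had a sub-threshold summit within 200 bp and 277 (45.3%) a conservative one. No tRNA gene had both, but the rule left out any region that overlapped a conservative peak, so sharing within 200 bp was limited in advance. Over all genes that are not protein-coding, 419 of 26917 had a sub-threshold summit (1.56%) and 981 a conservative summit (3.64%). Most of these genes, 15363, were piRNA genes, of which 0.215% had a sub-threshold and 0.117% a conservative summit. The broad class of other non-coding RNA genes had 3.74% and 6.90%. The sub-threshold tRNA share was thus no higher than that of other non-coding RNA genes, while the conservative tRNA share was.

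The 19 regions at tRNA genes had combined signals from 72.3 to 124.7 with a median of 90.4, against a median of 215 for the 256 conservative peaks at tRNA genes. In replicate 1 they ran from 33.1 to 60.4 and in replicate 2 from 37.6 to 76.4. Their summits lay inside the gene at 12 of 19, and 5 of 19 windows held GGTTCGA, against 99 of 256 conservative windows. The windows of T22F3.t1, C06G1.t4, Y51H4A.t3 and K04A8.t3 held GGTTC but not all of GGTTCGA. Other forms of the B box were not searched, so these counts do not show which genes lack one. The strongest was T22F3.t1 (chrV:3582169-3582512), printed above, at 37.4 in replicate 1 and 76.4 in replicate 2. Next came F54F7.t1 (chrX:11872408-11872751) at 54.6 and 46.2, where the non-coding gene F54F7.13 starts 10 bp from the summit. F52E10.t3, also printed above, had 47.4 and 46.0, so its replicates were nearly equal.

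Other small RNA genes were also at fewer sub-threshold regions than conservative peaks. By gene, 2.60% of snoRNA and 5.43% of snRNA genes had a sub-threshold summit. The background of 1.56% rests mostly on piRNA genes, and other non-coding RNA genes had 3.74%. Summits within 200 bp of genes annotated as snoRNA, whose products mostly guide the modification of other RNAs, numbered 11 (0.460%) against 74 conservative summits (3.34%, adjusted p = 1.49e-13, Fisher's exact test). With the summit required inside the gene, the snoRNA difference was no longer past the threshold (−0.149 percentage points, adjusted p = 0.585, Fisher's exact test). The strongest such region (chrIV:9511412-9511755) was also the strongest at snRNA genes. It lay 118 bp upstream of smy-2, annotated as a snoRNA gene, near smy-1, annotated as an snRNA gene. Its signal was 34.5 in replicate 1 and 54.0 in replicate 2. The next region at snoRNA genes, at R08C7.19 (chrIV:4447198-4447541), had 55.2 and 46.0 and lay in a coding exon of chat-1, which encodes a chaperone of phospholipid flippases. For snRNA genes the counts were 6 against 15 (adjusted p = 0.0774, Fisher's exact test), with a region at sls-2.10, an SL2 spliced leader RNA gene (chrIV:9130579-9130922), at 51.2 in replicate 1 and 46.6 in replicate 2.

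Regulatory RNA genes gave few regions by count. By gene, a sub-threshold summit was found for 1.92% of microRNA, 2.58% of long intergenic RNA, 2% of antisense RNA and 0.215% of piRNA genes. Over all genes that are not protein-coding it was 1.56%, so only the piRNA share lay below that background. For microRNA genes the counts were 3 sub-threshold against 14 conservative summits (adjusted p = 0.0148, Fisher's exact test), a call that was lost against the second combined thresholded list (adjusted p = 0.0527, Fisher's exact test). The strongest were at cel-mir-73 (chrX:2368740-2369083, 52.8 in replicate 1 and 36.9 in replicate 2) and cel-mir-61 (chrV:11769950-11770293, 34.9 and 59.5). For piRNA genes, whose short products silence transposons in the germ line, they were 21 against 14 (adjusted p = 0.441, Fisher's exact test), led by 21ur-13313 and 21ur-3187 with combined signals of 102 and 97.3. Long intergenic RNA genes had 5 against 14 (adjusted p = 0.0719, Fisher's exact test), led by linc-95 at 95.4 and linc-87 at 91.0, and antisense RNA genes 2 against 5 (adjusted p = 0.340, Fisher's exact test), at anr-47 (95.9) and anr-17 (85.6). None of either set lay within 200 bp of a ribosomal RNA gene, which allows a share of up to 0.154% of sub-threshold regions at an exact 95% interval.

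The remaining annotated non-coding RNA genes, a broad class of mostly uncharacterised transcripts, were the exception in standing above the lower scores. They had 226 sub-threshold summits (9.46%), against 435 conservative summits (19.7%, adjusted p = 2.35e-22, Fisher's exact test) and 209 at the lower scores (6.60%, adjusted p = 9.97e-04, Fisher's exact test). It was the single class of the 10 that passed the threshold against the lower scores. Its strongest region (chrV:2623766-2624109) was 42 bp upstream of W02H5.14, with 34.5 in replicate 1 and 79.3 in replicate 2. Pseudogenes had 51 sub-threshold against 36 conservative summits (adjusted p = 0.334, Fisher's exact test), led by WBGene00023264 with a combined signal of 110 and WBGene00044914 with 107.

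**Figure D5:**
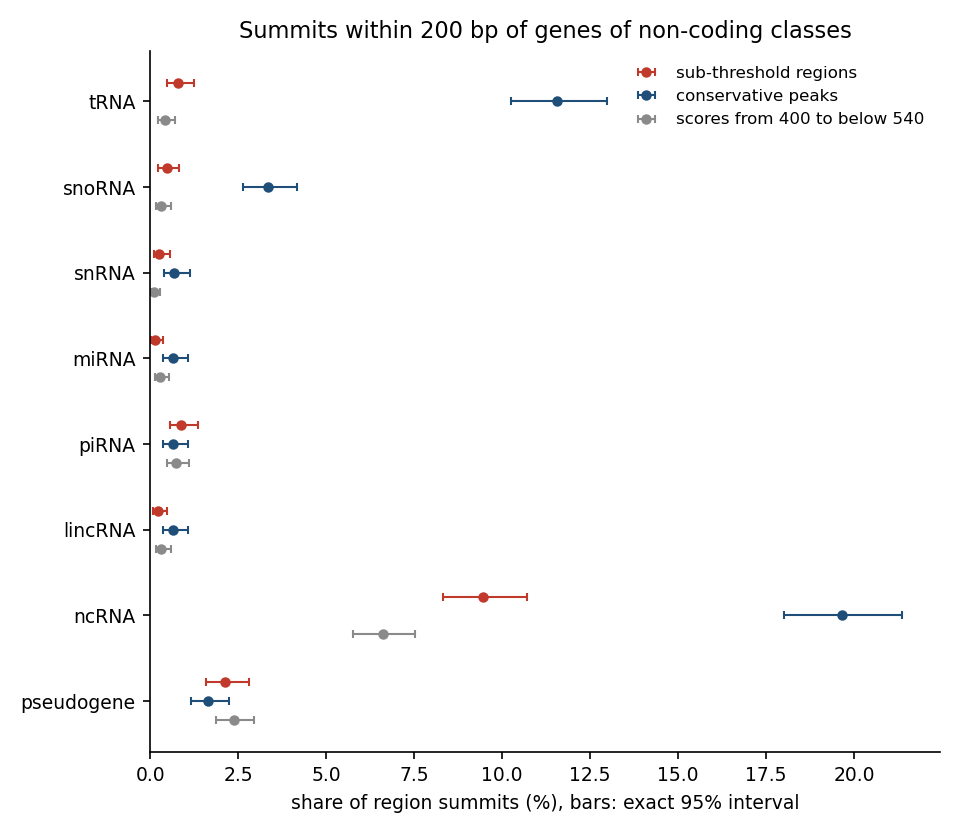
Share of summits within 200 bp of a gene of each class (x axis, percent, with exact 95% intervals) for sub-threshold regions (red), conservative peaks (blue) and regions of lower scores (grey). At tRNA genes the red point is at 0.795% and the blue at 11.6%, and at other ncRNA genes the red point, 9.46%, stands between 19.7% in blue and 6.60% in grey.

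Words that lead at conservative summits were scarce as well. The words were chosen on the conservative peaks, which favours those in the comparison, and each was searched on both strands within 50 bp of the summit. AGTGGTTA stood in 10 sub-threshold windows (0.419%), against 77 conservative windows (3.48%, adjusted p = 3.21e-15, Fisher's exact test adjusted over 6 words) and 0.175% of all genome windows of that width. In the windows next to the sub-threshold ones it averaged 0.146%. Of its 10 holders, 5 lay near a tRNA, snoRNA or snRNA gene. CTGAGCTA and ACTGAGCT, which overlap each other in 7 letters, stood in 6 and 7 sub-threshold windows against 69 and 61 conservative windows (adjusted p = 1.72e-15 and 8.29e-13, Fisher's exact test). With regions near tRNA, snoRNA and snRNA genes left out of both sets, neither word was scarcer in sub-threshold windows. CTGAGCTA then stood in 0.0850% against 0.0535% and ACTGAGCT in 0.127% against 0%, neither difference past the threshold. CTCGGCCA had 24 against 69 (adjusted p = 2.86e-07) and GGTTCGA 20 against 142 (adjusted p = 4.39e-26, Fisher's exact test for both), and 0.340% and 0.725% of genome windows hold them.

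CTCGGCCA had 1 of its 24 sub-threshold holders near a tRNA, snoRNA or snRNA gene, and AAACGCGC had none. AAACGCGC stood in 20 sub-threshold windows (0.837%), 13 of them in a promoter, against 73 conservative windows (3.30%, adjusted p = 1.87e-09, Fisher's exact test). Its share was 0.502% in the neighbouring windows and 0.213% over the genome. None of the 6 words differed from the regions of lower scores past the threshold (adjusted p from 0.976 to 1, Fisher's exact test).

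When the words were chosen instead on conservative peaks away from small RNA genes, a choice made after seeing the data, the most frequent in sub-threshold regions was GCAAACAC, shown above. It stood in 37 windows (1.55%), against 68 conservative windows (3.07%, adjusted p = 7.09e-04, Fisher's exact test over 5 words), 0.733% of neighbouring windows and 0.417% of genome windows. AAGTGCGC stood in 16 against 59 (adjusted p = 1.07e-07, Fisher's exact test) and CTAGGCCA in 28 against 56 (adjusted p = 7.09e-04, Fisher's exact test). At least 1 of the 5 words stood in 4.31% of sub-threshold windows, 11.4% of conservative windows and 3.66% of those of lower scores. These words too were chosen on conservative peaks, which favours those, so the p-values against them are no independent support.

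Base composition lay between the compared sets. The median share of G and C within 50 bp of the summit was 43.6% in sub-threshold regions, 49.5% in conservative peaks, 41.6% at the lower scores and 34.7% over the genome. In promoters the medians were 43.6%, 49.5%, 42.6% and 33.7%, in the same order of sets. In coding exons they were 46.5%, 49.5%, 46.5% and 40.6%, so that sub-threshold regions equalled those of lower scores, and in 3′ UTRs sub-threshold regions equalled conservative peaks at 36.6%. Repeat-masked sequence lay at 32.1% of sub-threshold summits, 21.7% of conservative summits and 35.7% of genome positions.

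Several of the strongest sub-threshold regions repeated in sequence. The highest combined signal, 237, belonged to the 110 bp region on IV printed above (chrIV:14780003-14780112), with 38.1 in replicate 1 and 290 in replicate 2. Its replicates differed by a factor of 7.62, the widest of all sub-threshold regions. A further pair of the 4 strongest, at chrX:1636255-1636598 (combined signal 137, with 37.9 and 92.8 in the replicates) and chrII:5145679-5146022 (132, with 38.1 and 75.7), were intergenic as well. The one on II repeated at 50 bases with 96.1% equal letters. A further one of the 15 strongest, 3491 bp from the start of dnc-6, repeated at 26 bases with 82.7%.

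Some of these repeats lay beside regions of another kind. In the ranked list, 173 nuclear regions scored 830 or more but were in neither thresholded list, with a median combined signal of 258 and a highest one of 4930. Their summits lay in a tandem repeat (at least 80% of letters equal at a shift of 10 to 50 bases) in 106 cases, or 61.3% (interval 53.6 to 68.6). The same measure found 83 of 2389 sub-threshold regions (3.47%, interval 2.78 to 4.29), 63 conservative peaks (2.85%), 2.49% at the lower scores and 0.797% of genome positions. The regions on IV, X and II were 228, 491 and 178 bp from the nearest of the 173. In all, 18 sub-threshold regions (0.754%) lay within 1000 bp of one, and 14 of these were in a tandem repeat, against 0.298% of genome positions within that distance. The part of repeats in the signal of these regions was not tested.

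Most other strong regions had a gene beside them, and replicate 1 or replicate 2 dominated in turn. At met-1, which encodes a histone H3 lysine 36 methyltransferase, the summit was in the 5′ UTR 105 bp from the start, with 58.5 in replicate 1 and 42.9 in replicate 2 and a combined signal of 143. At bub-1, which encodes a spindle checkpoint kinase, it was 267 bp upstream, with 73.2 and 41.8. An intron of hmr-1, the worm's classical cadherin, had 79.6 in replicate 1, the highest of all sub-threshold regions there, against 41.2 in replicate 2. At F09E5.22 the summit was 184 bp upstream of pkc-3, the atypical protein kinase C of cell polarity, with 63.3 and 42.7.

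Among the other strong regions, one in an intron of src-2 (a Src family kinase) was higher in replicate 2, with 39.7 in replicate 1 and 63.3 in replicate 2. An intergenic region 4559 bp from the start of egl-18, which encodes a GATA factor of the epidermis, was higher in replicate 1 (69.7 and 42.8). A further region, 2334 bp from the start of T09B4.5, had 39.05 and 74.97. Of the 15 strongest, only the F54F7.13, T22F3.t1, W02H5.14, bub-1 and F09E5.22 regions were in a promoter.

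Counted by gene, 780 of 19973 protein-coding genes (3.91%) were nearest to a sub-threshold summit within 1000 bp, and 1073 (5.37%) to a conservative one. The 2 sets of genes shared 26, which is 3.33% of the genes with a sub-threshold region and 2.42% of those with a conservative peak. The rule left out regions that overlap a conservative peak, so sharing was limited in advance, here and in the gene lists below. Most genes, 714, had 1 sub-threshold region and 66 had more, up to 3 at atg-2 and zyg-8, an autophagy gene and a doublecortin-family kinase gene.

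Genes for the machinery of protein synthesis had fewer sub-threshold regions than conservative peaks. Of 81 ribosomal protein genes, 6 (7.41%) had a sub-threshold region and 27 (33.3%) a conservative peak, beside the backgrounds of 3.91% and 5.37%. No gene had both, and the rule limited such sharing in advance. The strongest sub-threshold region was 210 bp upstream of rpl-23, at 41.3 in replicate 1 and 58.0 in replicate 2. The summit at rps-13 was 3 bp upstream of its start (46.2 and 39.5), and those at rla-2 (39.4 and 46.3) and rpl-32 (47.7 and 38.3) were upstream too. At rpl-25.1 and rpl-4 they were in coding exons. Translation factors had 3 of 42 genes against 10, with eif-3.I at 34.1 in replicate 1 and 59.9 in replicate 2, and aminoacyl-tRNA synthetases, which charge tRNAs, 1 of 32 against 4, at pars-2 (38.6 and 43.5).

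Genes of energy supply and protein folding also had fewer sub-threshold regions than conservative peaks, while proteasome genes had about as many. Over all protein-coding genes, 3.91% had a sub-threshold region and 5.37% a conservative peak. Genes of the respiratory chain and of ATP synthase had 6 of 46 (13.04%) against 13, with 4 of the 6 summits within 500 bp upstream. The gene atp-4, for an ATP synthase subunit, had 33.2 in replicate 1 and 70.4 in replicate 2, while ucr-2.2 of complex III had 46.6 and 49.7. Heat shock and chaperone genes had 3 of 60 (5%, near that background) against 13 (21.7%), led by the chaperonin subunit gene cct-4, 50 bp upstream, at 39.7 and 44.9. Proteasome genes had 5 of 33 (15.2%) against 4, led by pbs-3, which encodes a subunit of the core particle, at 37.4 in replicate 1 and 55.4 in replicate 2. Splicing factor genes had 4 of 47 (8.51%) against 5 (10.6%), led by snrp-3 (37.3 and 52.9). Histone genes had 3 of 80 (3.75%, near the background) against 8 (10%), led by his-3 (33.1 and 65.3). Chromatin genes had 5 of 71 (7.04%) against 11 (15.5%), where met-1 was highest.

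Lists of gene regulators lay on both sides of the 3.91% background, and chemoreceptor genes below it. Homeobox genes had 4 of 69 (5.80%) against 2, led by ceh-38 at 40.6 in replicate 1 and 53.9 in replicate 2, and nuclear hormone receptor genes 6 of 269 (2.23%) against 5, led by nhr-223 at 45.2 and 49.5. Of 25 genes named ztf, 2 (8.0%) had a sub-threshold region, ztf-30 and ztf-17, and 1 a conservative peak. Chemoreceptor genes, which are expressed in few sensory neurons, had 20 of 1310 (1.53%) against 10, led by srd-10 at 49.1 and 44.0. These shares are given beside the background, with no test of any list.

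Collagen genes, which encode the cuticle, had 17 of 163 (10.4%) with a sub-threshold region and 11 (6.75%) with a conservative peak. The backgrounds over all protein-coding genes were 3.91% and 5.37%. No gene had both, and the rule limited such sharing in advance. The sub-threshold regions lay in the genes rather than before them. Of 22 sub-threshold summits assigned to collagen genes, 15 (68.2%) were in a coding exon, against 7 of 13 conservative summits (53.8%), 11 of 16 at the lower scores (68.8%) and 38.2% of genome positions that near a collagen start. In those coding exons the median share of G and C was 61.4% at sub-threshold summits, 62.4% at conservative summits, 60.4% at the lower scores and 55.4% at genome positions. The strongest was in col-105, 938 bp from its start, with 37.0 in replicate 1 and 47.4 in replicate 2, and sqt-1, mutated in worms of altered body shape, had 46.7 and 41.6.

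Along the genome, sub-threshold regions were spread over all nuclear chromosomes, from 18.5 per Mb on V to 29.5 per Mb on I. Relative to conservative peaks they were more often on IV, with 17.04% against 14.01% (adjusted p = 0.0150, Fisher's exact test over 6 chromosomes), and less often on X, with 15.2% against 18.8% (adjusted p = 0.00648, Fisher's exact test). With regions near tRNA, snoRNA and snRNA genes left out of both sets, X had 15.1% against 16.2% (adjusted p = 0.417, Fisher's exact test). The IV call was lost with only the upper part of the score band (adjusted p = 0.411, Fisher's exact test). No chromosome differed past the threshold from the regions of lower scores. A conservative peak lay within 1000 bp of 161 sub-threshold regions (6.74%), of 6.35% at the lower scores and of 3.96% of genome positions outside conservative peaks. Among themselves, 25 sub-threshold summits were under 200 bp from the one before and 244 under 1000 bp.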

How the data were processed

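Peak lists on build ce11 were taken as deposited. The score and the signal per region were deposited by the authors, as was a −log10 IDR, which was used only to relate the score to the IDR. The signal is the peak caller's own value; its scale, the aligner, the caller and the depth are not given in the sources used here. Each thresholded list was made with 1 input file more than the ranked lists, per the file headers. Replicate signals came from the replicate columns of the combined ranked list. Their order was settled by exact match to each sample's own ranked list, where coordinates and signal were the same at 2300 of 2389 sub-threshold regions for replicate 1 and at 2338 for replicate 2.

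Genes came from annotation release 115 of WBcel235, and all 612 tRNA genes matched RefSeq names by position. Where classes overlapped at a summit, promoters went before UTRs and exons, exons before introns, and intergenic came last. Summits were assigned to the closest protein-coding start, up to 1000 bp away. Genome positions were sampled every 10 bp for classes, starts and repeat-masked sequence. They were sampled more sparsely for the share of G and C, tandem repeats, collagen genes and neighbouring regions. Shares were compared with Fisher's exact test, two-sided, adjusted by Benjamini-Hochberg within each family, at a threshold of 0.05, in Python 3.11.15 with scipy 1.17.1. The tests were run first on simulated data. The regions, gene lists and tests were chosen with earlier results of these data known. Named were the 15 regions of highest signal (1 of them is not reported here), the 2 at each edge of the band, the 2 strongest of each non-coding class and the strongest of each gene list. The tRNA gene F52E10.t3, the further ribosomal protein genes, ucr-2.2, ztf-17, sqt-1, atg-2, zyg-8, the szy-20 and WBGene00023264 sequences, and the repeat, base composition and collagen measures were chosen after values were seen. Sequences were not taken from chromosome I, and 1 region whose window reached a UTR was passed over. The chemoreceptor list was narrowed to receptor families, which left out serpins and kinases of like symbols. Alternatives covered the compared list, the score band, neighbouring regions, each replicate's own list, windows, starts and words.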

Additional observations from a re-analysis of the deposited data

How the results depend on the processing

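Differences are sub-threshold minus compared, in percentage points. Of 446 alternative values over 32 shares, 374 kept their side of the threshold, and their direction wherever the main or alternative value passed it. A change of sign with neither value past the threshold was counted among the 374, as for II and snRNA genes against the lower scores (−0.537 and 0.156). Set against regions of scores from 400 to below 540, these differences, all past the threshold against conservative peaks, changed sign: any gene start 5.03, protein-coding start 2.01, upstream side 8.48, promoter 4.68, 3′ UTR −0.855, intron −1.58, coding exon −2.96, non-coding exon 0.790, intergenic −0.248, tRNA 0.385, snoRNA 0.145, other ncRNA 2.86, X 0.218, AGTGGTTA 0.134, CTGAGCTA 0.0301, AAACGCGC 0.206, CTCGGCCA 0.0258 and ACTGAGCT 0.00883. Of these, only any gene start, upstream side, promoter, coding exon and other ncRNA passed the threshold against the lower scores. The rest did not differ past it. With only the 13 regions found in a replicate's own list, the differences from conservative peaks were any gene start 14.5, protein-coding start 21.9, promoter 7.53, coding exon 2.68, 3′ UTR −1.04, intron −9.21, intergenic −2.65, tRNA −11.6, IV −6.32, X 4.28 and AGTGGTTA −3.48, none past the threshold. The X difference lost its call with only the upper part of the score band (−3.07) and without small RNA genes in either set (−1.08, added after seeing the data). That last change also turned CTGAGCTA (0.0315) and ACTGAGCT (0.127), neither past the threshold. With 1 replicate's own ranked list in the same band, 314 regions remained without replicate 1 and 142 without replicate 2, of which 24.2% and 18.3% overlapped a sub-threshold region. Over these 2 lists, coding exon gave 4.14 to 10.6 (no longer past the threshold without replicate 2, adjusted p = 0.0684, Fisher's exact test), X −2.24 to −0.488, 3′ UTR −0.0839 to 0.369 and microRNA −0.633 to 0.00432, while any gene start gave −27.2 to −20.7, promoter −20.3 to −19.2 and tRNA −10.9 to −10.3, all 3 past the threshold. The IV difference lost its call in the upper part of the band (2.24) and in both 1-replicate lists (adjusted p = 0.299 and 0.0557, Fisher's exact test), and 3′ UTR in the upper part (0.533). Intergenic lost it with promoters of 250 bp (0.618) and without small RNA genes (1.81), and snoRNA with summits inside the gene (−0.149) and in both 1-replicate lists. MicroRNA lost its call in 7 of 14 alternatives and turned round in 1. The cause of these changes was not tested beyond the smaller number of regions. No paired analysis was possible because both replicates form 1 group. Depth is unknown, so no limit from reads can be given.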
